A study of Mus musculus with 8 samples.

Results

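The D-type cyclins, the kinases that they bind and the inhibitors that hold these kinases back were followed in cultured mouse cerebellar neurons with and without added thyroid hormone. The 9 genes are Ccnd1, Ccnd2, Ccnd3, Cdk4, Cdk6, Cdkn1a, Cdkn1b, Cdkn1c and Cdkn2c, and their members on the array are all probe-sets whose single gene symbol is one of these. A probe-set is a group of short oligonucleotides on the array that together read one transcript. The 9 genes had 25 of the 45037 probe-sets, and 21 of the 25 were bright enough to be tested, as were 18015 of all probe-sets. The number of probe-sets, and of those kept, was 3 and 3 for Ccnd1, 7 and 6 for Ccnd2, 3 and 1 for Ccnd3, 3 and 3 for Cdk4, and 3 and 2 for Cdk6. It was 2 and 2 for Cdkn1a, 2 and 2 for Cdkn1b, 1 and 1 for Cdkn1c, and 1 and 1 for Cdkn2c.

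The cells came from the pooled cerebella of wild-type newborn mice, and no group carried a mutation or transgene. According to the labels the pups were of postnatal days 4 to 7, while the study's methods give younger pups. All cultures spent 48 h in serum-free medium and were then given triiodothyronine (T3, the active thyroid hormone) at 0.1 µM or left untreated for the same 6, 16, 24 or 48 h. Each of these 8 conditions was 1 culture on 1 array. The pair of cultures of a time point was prepared together from the same batch of cells, and no condition had a replicate. P-values and standard errors for the T3 effect start from the spread between the 4 pairs. Those for a change over the hours start from the scatter around a fitted line. In both, the program limma drew the spread of each probe-set toward that of probe-sets of similar brightness. For the T3 effect this borrowed part weighed 4.44 degrees of freedom, beside 3 of the probe-set itself.

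D-type cyclins are made when mitogens reach a cell and bind CDK4 or CDK6. The active kinase phosphorylates the retinoblastoma protein, which releases E2F factors and lets the cell enter S phase. Inhibitors of the INK4 family such as p18 (Cdkn2c) bind CDK4 and CDK6 themselves, whereas those of the Cip/Kip family, p21 (Cdkn1a), p27 (Cdkn1b) and p57 (Cdkn1c), bind cyclin and kinase together. In the developing cerebellum, Ccnd1 and Ccnd2 are induced in granule cell precursors by Sonic hedgehog, and p27 accumulates as these precursors leave the cell cycle.

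Reference promoters were read for the genes that the RefSeq table of the assembly GRCm38.p6 holds (6 of the 9 genes, 9 windows, each from 250 bases before a transcript start to shortly after it). Ccnd1, Ccnd2 and Cdkn1c had no entry. Both strands were searched for 6 motifs: the E-box CACGTG bound by MYC family proteins, the nuclear receptor core AGGTCA, a direct repeat of that core spaced by 4 bases as thyroid hormone receptors bind it, the GC box GGGCGG, the E2F letters TTTCGCGC, TTTGGCGC or TTTCCCGC, and the p53 element with no spacer and at most 1 mismatch. The Cdk4 promoter is shown because it carries 4 copies of the E-box. The upstream Cdkn1a promoter is shown because it carries the p53 element, for which Cdkn1a is the textbook target. In both sequences the 250 bases before the start are given, 5′ to 3′ on the + strand, with the motif in capitals.
Cdk4, chr10:127063285-127063534: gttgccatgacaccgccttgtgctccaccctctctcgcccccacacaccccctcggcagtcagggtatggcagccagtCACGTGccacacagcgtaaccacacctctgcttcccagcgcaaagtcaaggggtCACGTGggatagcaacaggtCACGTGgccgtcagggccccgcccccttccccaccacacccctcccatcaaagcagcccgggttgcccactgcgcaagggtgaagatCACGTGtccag
Cdkn1a, chr17:29090729-29090978: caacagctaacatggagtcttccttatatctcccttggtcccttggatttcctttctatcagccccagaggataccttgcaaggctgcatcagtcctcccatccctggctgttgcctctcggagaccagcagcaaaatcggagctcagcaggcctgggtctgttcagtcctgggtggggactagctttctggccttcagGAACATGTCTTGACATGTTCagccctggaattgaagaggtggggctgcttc

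At least 1 E-box stood in 7.15% of the 32851 promoter windows of the table, and 4 or more stood in 8 windows (0.0244%). Cdk6 and 1 of the windows of Cdkn2c held 1 E-box each. The p53 element stood in 0.067% of all windows. The receptor core alone was common (16.3% of windows). Among the windows of the 9 genes it stood in 1 of Ccnd3, in that of Cdk4, where it overlaps an E-box, and in 1 of Cdkn2c. The spaced direct repeat (0.0152% of all windows) and the E2F letters (1.84%) were not found in the 9 windows, and the GC box, present in 35.7% of all windows, was found in 6 of them. These matches describe letters in the reference and were not tested for binding.

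The values below are the linear signals of the array, brought by the authors to the same mean of 100 on every array. A T3 effect is the mean of the 4 differences in log2 signal, T3 minus untreated, with the standard error (SE) that limma gives it. A slope is the change in log2 signal for each doubling of the hours, fitted through the means of the pair of arrays of each time point. Levels of different probe-sets cannot be compared, since each binds with its own strength. In RNA from a whole culture, fewer cells of a type and less RNA per cell cannot be told apart.

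The makeup of the cultures differed between arrays in ways that touch the results below. The values are mean log2 signals of a list of marker genes, relative to each gene's mean over the 8 arrays, and the list's genes are those that passed the filter. Granule precursor markers (6 of 6 genes kept) stood at 1.11 and 0.99 at 6 h, untreated and T3, and at -1.31 and -0.95 at 48 h. Differentiated granule neuron markers (5 of 6) stood at 1.57 and 1.47 at 6 h and at -1.85 and -1.41 at 48 h, and GABAergic and Purkinje cell markers (4 of 7) at 1.58 and 1.04 and at -1.60 and -1.39. The list of vascular and meningeal markers (9 of 10) went the other way, from -1.34 and -1.80 to 1.07 and 1.14. That came from the collagen genes Col1a1, Col1a2 and Col3a1 with Dcn, Lum, Pdgfrb and Acta2, while of the endothelial genes Cldn5 and Kdr had slopes of -0.09 and 0.14 and Pecam1 was below the filter. When the 8 arrays were taken as independent, 6 of 6 precursor genes fell (8.56% of all probe-sets fell) and 7 of 9 genes of the vascular and meningeal list rose (10.6% of all rose). With a random block for the time point these were 0 (0.422% of all) and 4 (1.75% of all). The untreated 24 h array stood apart, with astrocyte markers (9 of 10) at 1.32 against -0.39 to 0.17 on the other arrays. That came from Aqp4, Slc1a3, Slc1a2, Aldh1l1 and Fabp7. Gja1 (2594.7 untreated and 2867.5 with T3 at 24 h) and Gdf10 (98.9 and 196.3) went the other way. Hopx and Ndrg2 were higher on some other arrays. Oligodendrocyte lineage markers (5 of 9) stood at 0.95 against -0.29 to 0.11, through Olig1, Mbp and Cnp and not Pdgfra or Cspg4. GABAergic and Purkinje cell markers were at 1.93 on the untreated 24 h array and at -0.39 on its T3 partner, but were also high on both 6 h arrays. On the same untreated array precursor markers were at 0.67 against -0.63 with T3. Gabra6, which defines mature granule neurons, stayed between 2.7 and 12.3 and was the only gene of its list below the filter. Microglia markers (6 of 8) were lowest on both 24 h arrays (-1.57 untreated and -2.10 with T3) and highest at 48 h (1.43 and 1.71). Their gene Cd68 read 447.7 with T3 at 24 h, above both 6 h arrays (392.1 and 433.0). Choroid plexus markers (5 of 6) stood at -1.14 and -0.73 at 6 h and 0.77 and 1.03 at 16 h. At 24 h they stood at -0.81 and -0.32, and at 48 h at 0.44 and 0.75. Folr1, Kcnj13 and Clic6 took this course, and Ttr and Otx2 did not. No list had a gene at 0 on all arrays.

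No probe-set of the 9 genes passed the test for T3 (limma, time point as a block, Benjamini-Hochberg over 18015 probe-sets), and none of the others did (0%). At an unadjusted p below 0.05 there were 985 probe-sets, 4 of them members, and all 4 read Ccnd2. The median T3 effect of the 21 probe-sets was -0.13, beside 0.012 over all probe-sets, with 8 above 0 and 13 below. Their effects ran from -0.36 for Cdkn1c to 0.75 for the Ccnd2 probe-set 1416123_at. Without the time point as a block, 0 passed as well. A T3 effect that changes with the hours was not called for any probe-set (0%; 309 at an unadjusted p below 0.05, none of them members), and among the members the change in effect per doubling of the hours ran from -0.27 for Cdkn1c to 0.31 for Cdkn1b 1419497_at.

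**Figure D1:**
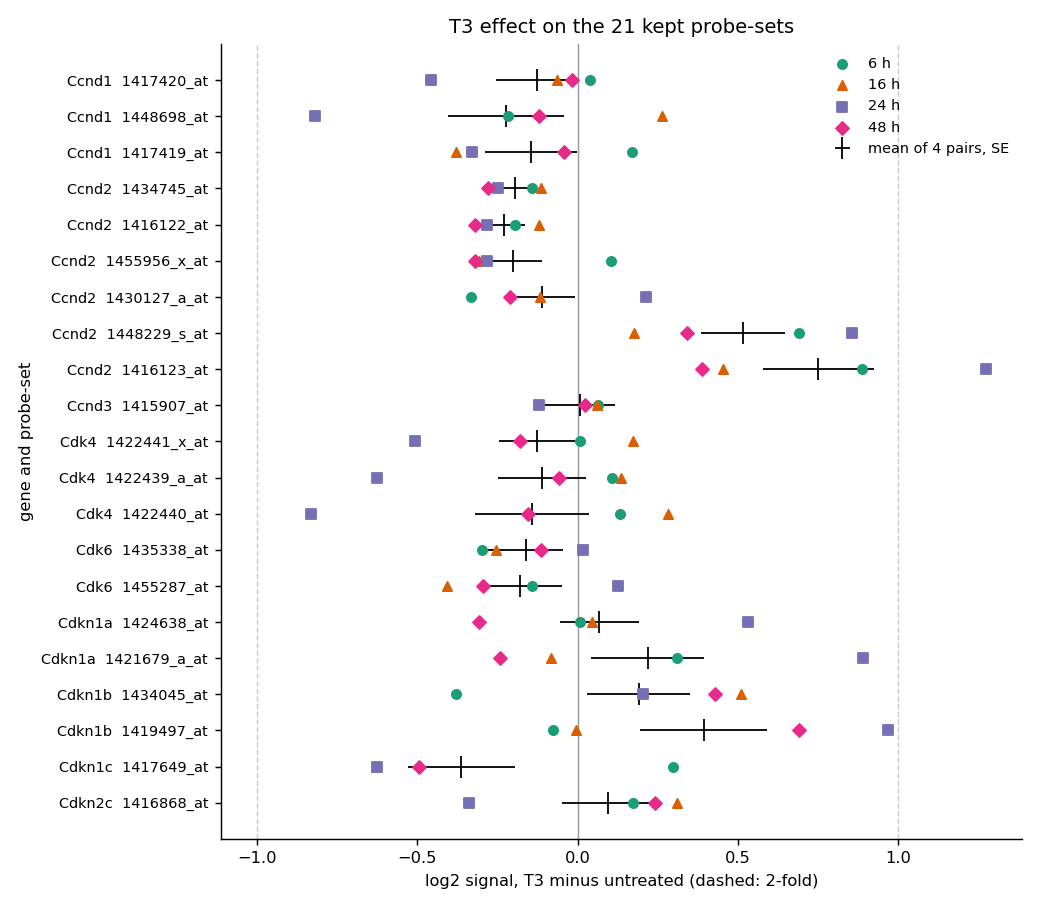
Log2 signal with T3 minus untreated (horizontal axis) for each of the 21 kept probe-sets (vertical axis), with 1 symbol per time point and the mean of the 4 pairs with its SE in black; the dashed lines mark 2-fold. Only Ccnd2 has probe-sets on both sides of 0 at all 4 time points, with 1448229_s_at and 1416123_at to the right and 1434745_at and 1416122_at to the left, and the 24 h squares of Cdk4 and Cdkn1a lie farthest from 0 within their rows.

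With 1 array against 1 array, 1 probe-set of the 9 genes went beyond 2-fold, Ccnd2 1416123_at at 24 h. At 24 h 8.83% of all kept probe-sets were beyond 2-fold, and at 6, 16 and 48 h, when none of the 21 was, the shares were 0.855%, 0.738% and 1.18%. These folds have no test. Of the 21 probe-sets, 2 were higher with T3 at all 4 time points (8.25% of all probe-sets were) and 2 were lower at all 4 (6.82% were). All of these belong to Ccnd2.

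Ccnd2 encodes cyclin D2, the D cyclin of granule cell precursors, and its 7 probe-sets were treated separately because earlier results of these data had them disagree under T3. The letters in their names give how specific they are: plain "_at" is designed for a single transcript, "_a_at" for several transcripts of a gene, "_s_at" shares all probes between transcripts that may belong to different genes, and "_x_at" holds probes that can bind other sequences. Where each lies on the transcript was not used here.

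A pair of probe-sets was lower with T3 throughout. Probe-set 1434745_at read 2269.1 untreated and 2055.0 with T3 after 6 h, 1862.1 and 1721.0 after 16 h, 1695.6 and 1426.1 after 24 h, and 1612.0 and 1328.6 after 48 h. Its T3 effect was -0.20 (SE 0.064, n = 4 pairs, limma adjusted p = 0.815), and the fold at single time points lay between 0.824 and 0.924. Probe-set 1416122_at read 2340.9 and 2042.8, 1810.6 and 1665.4, 1613.8 and 1326.0, and 1332.6 and 1068.6 in the same order. Its T3 effect was -0.23 (SE 0.066, adjusted p = 0.815) with folds of 0.802 to 0.920. Both were lower with T3 at every time point by modest amounts, and over the 8 arrays they moved together (Pearson r = 0.98).

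Another pair was higher with T3 throughout. Probe-set 1448229_s_at read 567.1 untreated and 915.8 with T3 after 6 h, 573.7 and 648.4 after 16 h, 304.4 and 550.6 after 24 h, and 384.0 and 486.0 after 48 h. Its T3 effect was 0.52 (SE 0.13, adjusted p = 0.815). Probe-set 1416123_at read 138.0 and 255.0, 103.1 and 141.2, 61.3 and 148.2, and 90.4 and 118.4, with folds of 1.848, 1.37, 2.418 and 1.31. Its T3 effect was 0.75 (SE 0.174, adjusted p = 0.815), the largest among the 21. These 2 probe-sets correlated with each other at r = 0.95 over the 8 arrays, and with the pair that was lower at 0.30 to 0.44. The 24 h array without T3, which stood apart in its markers, gave the lowest signal of both. Without the 24 h arrays their effects were 0.403 and 0.576, and on leaving out any other time point they were 0.457 or more.

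The remaining Ccnd2 probe-sets had no common direction. Probe-set 1455956_x_at read 1630.1 untreated and 1751.6 with T3 after 6 h, 1715.2 and 1384.3 after 16 h, 1345.8 and 1106.2 after 24 h, and 1119.8 and 896.4 after 48 h, so T3 was the higher at 6 h and the lower at the 3 later times (effect -0.20, SE 0.091, adjusted p = 0.815). Probe-set 1430127_a_at read 1620.0 and 1286.1, 944.1 and 870.4, 757.2 and 877.4, and 649.6 and 560.9, lower with T3 except at 24 h (effect -0.11, SE 0.104, adjusted p = 0.833). Probe-set 1416124_at, between 16.5 and 34.4, was below the filter.

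Seen within an array, the signal of 1416123_at divided by that of 1434745_at was 0.061 untreated and 0.124 with T3 after 6 h, 0.055 and 0.082 after 16 h, 0.036 and 0.104 after 24 h, and 0.056 and 0.089 after 48 h. The quotient of 1448229_s_at over 1434745_at was 0.25 and 0.446, 0.308 and 0.377, 0.18 and 0.386, and 0.238 and 0.366. As the numerators were higher and the denominator lower with T3 at all 4 time points, these quotients show the same disagreement on another scale and add no evidence for it. A mean over its 6 kept probe-sets gives a T3 effect of 0.088, against -0.20 for the brightest probe-set alone.

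**Figure D2:**
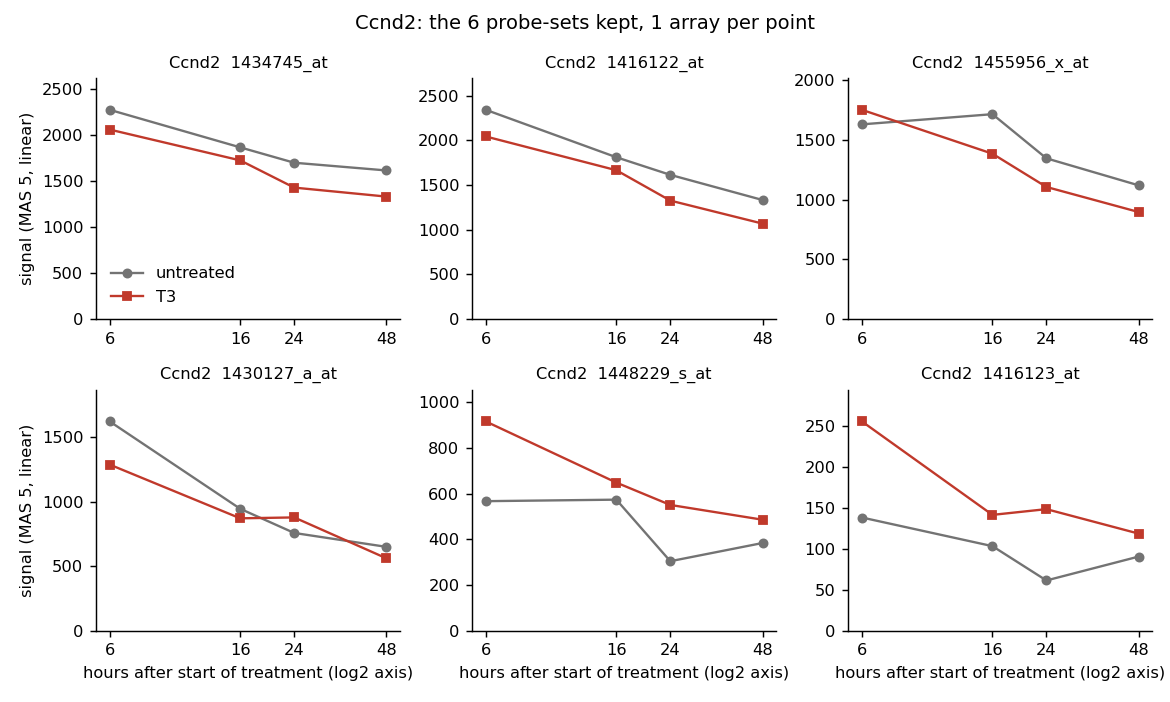
Signal (vertical axis, linear, from 0, a scale for each panel) of the 6 kept Ccnd2 probe-sets against the hours of treatment (log2 axis), untreated in grey and T3 in red, 1 array per point. The T3 line lies below the untreated line at all 4 times for 1434745_at and 1416122_at and above it for 1448229_s_at and 1416123_at, and with T3 each of the 6 reads less at 48 h than at 6 h.

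With the hours of culture the 6 Ccnd2 probe-sets had slopes of one sign. They were -0.20 (SE 0.052) for 1434745_at, -0.29 (SE 0.053) for 1416122_at, -0.26 (SE 0.067) for 1455956_x_at, -0.41 (SE 0.066) for 1430127_a_at, -0.28 (SE 0.101) for 1448229_s_at and -0.31 (SE 0.124) for 1416123_at. None passed on the 4 means of the time points (limma adjusted p = 0.208 to 0.271), and no probe-set of the whole table did (0%; 3409 at an unadjusted p below 0.05, 8 of them members). In the fit that takes the 8 arrays as independent, though the pair of a time point shares its cells, 5 of the 6 passed as falling (adjusted p = 0.00766 to 0.0475), as did 8.56% of all probe-sets. With a random block for the time point 1416122_at (adjusted p = 0.044) and 1430127_a_at (adjusted p = 0.0474) fell, as did 0.422% of all. That fit too draws its error from more than the 4 time points between which a slope varies, so its p-values can be too small. Markers of granule precursors, of differentiated granule neurons and of GABAergic and Purkinje cells were also lower at 48 h than at 6 h, and their part in the slopes was not tested.

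Ccnd1 encodes cyclin D1. Its brightest probe-set, 1417420_at, read 158.8 untreated and 163.1 with T3 after 6 h, 195.1 and 186.4 after 16 h, 201.7 and 146.7 after 24 h, and 266.0 and 262.8 after 48 h. The pair of arrays differed little except at 24 h, where T3 was the lower. Probe-set 1448698_at read 123.4 and 106.1, 111.4 and 133.7, 177.7 and 100.7, and 195.0 and 179.3 in the same order. Probe-set 1417419_at read 92.6 and 104.2, 122.6 and 94.3, 68.1 and 54.2, and 130.1 and 126.3, and its correlation with 1448698_at over the 8 arrays was 0.35. The T3 effects were -0.13 (SE 0.128), -0.22 (SE 0.181) and -0.15 (SE 0.144), with adjusted p of 0.82 to 0.843. The slopes of 0.21 (SE 0.116), 0.23 (SE 0.113) and 0.05 (SE 0.195) did not pass in any of the 3 fits over the hours. At 24 h, where the T3 array was lower for all 3, the untreated array was the one that stood apart in its markers. Without that time point the effects of 1417420_at and 1448698_at were -0.015 and -0.025.

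Ccnd3 encodes cyclin D3, a D cyclin found in many tissues. Its kept probe-set 1415907_at read 88.2 untreated and 92.2 with T3 after 6 h, 166.4 and 173.3 after 16 h, 165.2 and 151.9 after 24 h, and 280.9 and 285.2 after 48 h. The arrays of a time point were close to each other throughout, while the signal after 48 h was well above that after 6 h. The T3 effect was 0.01 (SE 0.112, adjusted p = 0.992), and under median centring of the arrays it was -0.053. The slope was 0.52 (SE 0.117), with an adjusted p of 0.208 on the 4 means, 0.01 with the arrays as independent and 0.0474 with the random block. The latter 2 fits called 10.6% and 1.75% of all probe-sets as rising. Probe-sets 1444323_at, between 2.3 and 16.1, and 1438805_at, between 1.8 and 7.6, were below the filter.

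Ccnd2 and Ccnd3 thus had slopes of opposite sign over the same arrays, and their brightest probe-sets correlated at -0.81 over the 8 arrays. Ccnd1 and Ccnd3 correlated at 0.86 and Ccnd1 and Ccnd2 at -0.48. The points of each correlation share the arrays and their cells, so these values are descriptions.

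Cdk4 encodes a catalytic partner of the D cyclins, and its 3 probe-sets moved together (r = 0.93 to 0.96 over the 8 arrays). Probe-set 1422441_x_at read 1022.9 untreated and 1028.2 with T3 after 6 h, 741.3 and 835.9 after 16 h, 1117.6 and 786.7 after 24 h, and 900.9 and 794.7 after 48 h. Probe-set 1422439_a_at read 748.0 and 805.0, 542.9 and 596.5, 935.1 and 606.2, and 649.6 and 623.5. Probe-set 1422440_at read 674.2 and 739.2, 455.1 and 553.3, 797.1 and 448.0, and 616.5 and 553.6. All 3 were slightly higher with T3 at 6 and 16 h and lower at 24 and 48 h, with folds of 0.704, 0.648 and 0.562 at 24 h. The mean effects were -0.13 (SE 0.118), -0.11 (SE 0.137) and -0.14 (SE 0.177), with adjusted p of 0.833 to 0.868.

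The untreated 24 h array gave the highest Cdk4 signal of the 8 arrays for all 3 probe-sets. Precursor markers on that array were also above those of its T3 partner (0.67 against -0.63), and their part in the difference was not tested. Without the 24 h arrays the effects were 0.0, 0.061 and 0.086. The slopes lay between -0.08 and -0.07 (adjusted p = 0.599 to 0.699).

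Cdk6 encodes the other kinase of the D cyclins. Probe-set 1435338_at read 223.2 untreated and 181.3 with T3 after 6 h, 210.2 and 176.2 after 16 h, 124.2 and 125.8 after 24 h, and 212.1 and 196.1 after 48 h. Probe-set 1455287_at read 224.1 and 203.1, 204.0 and 153.9, 126.8 and 138.3, and 215.7 and 175.8. Both were lower with T3 at 6, 16 and 48 h and not at 24 h, where both arrays gave the lowest signals. Microglia markers were also lowest on both 24 h arrays, and their part in the Cdk6 signal was not tested. The effects were -0.16 (SE 0.117) and -0.18 (SE 0.13), each with an adjusted p of 0.818, and the slopes were -0.05 (SE 0.154) and -0.09 (SE 0.14). Probe-set 1460291_at, between 0.8 and 5.7, was below the filter.

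**Figure D3:**
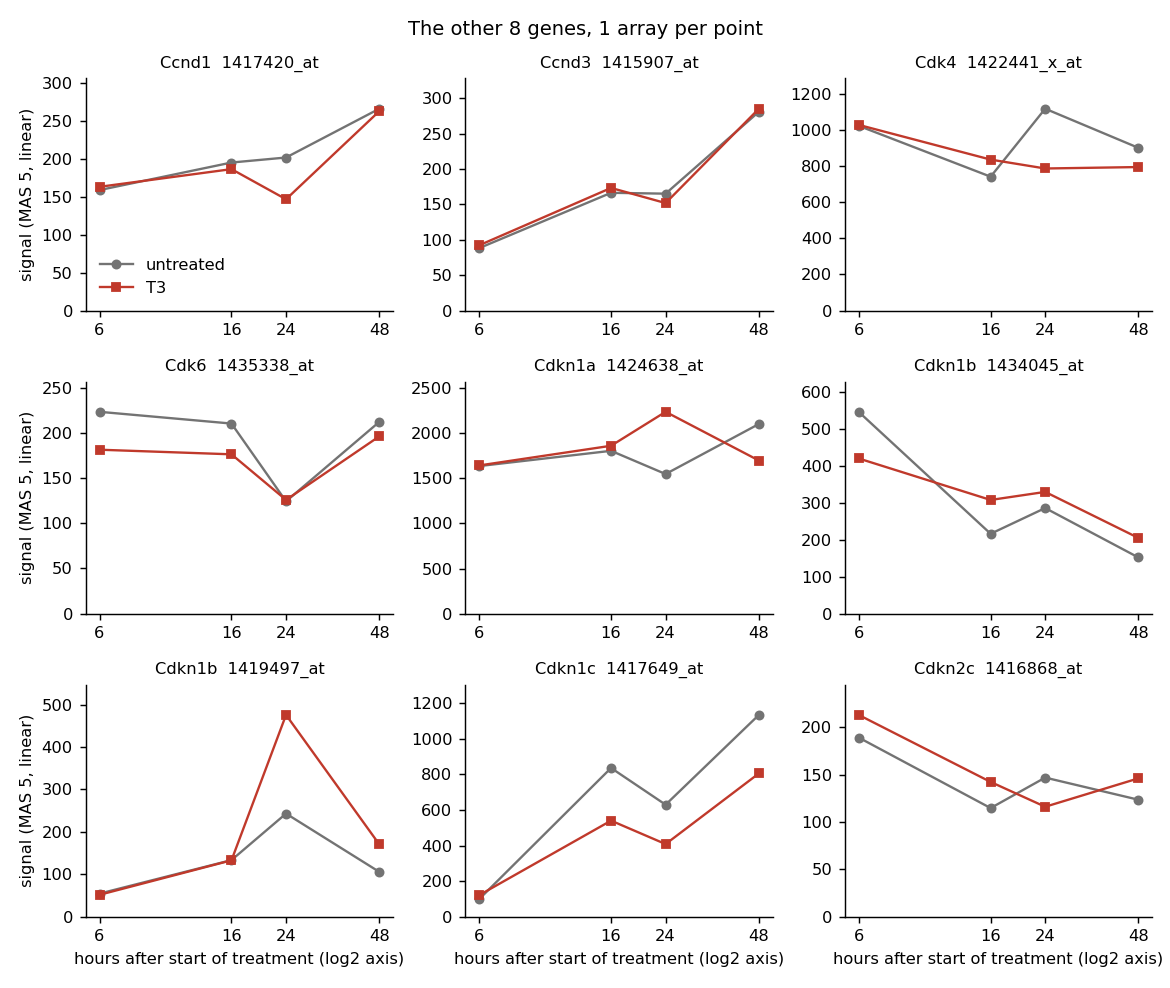
Signal (vertical axis, linear, from 0, a scale for each panel) against the hours of treatment (log2 axis) for the other 8 genes, by the brightest probe-set and for Cdkn1b by both, untreated in grey and T3 in red, 1 array per point. Ccnd3 and Cdkn1c read more at 48 h than at 6 h with and without T3, Cdkn1a and Cdk4 separate at 24 h in opposite directions, and the Cdkn1b panels have different courses.

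Cdkn1a encodes p21, the inhibitor that p53 induces after DNA damage. Probe-set 1424638_at read 1634.9 untreated and 1641.7 with T3 after 6 h, 1804.0 and 1860.0 after 16 h, 1546.9 and 2236.1 after 24 h, and 2101.0 and 1696.4 after 48 h. Probe-set 1421679_a_at read 773.8 and 959.8, 982.7 and 926.8, 620.5 and 1150.5, and 1097.3 and 928.0. Both had their highest signal on the T3 array at 24 h and their lowest on the untreated array of the same hours, a fold of 1.446 and 1.854, and both were lower with T3 at 48 h. The mean effects were 0.07 (SE 0.124, adjusted p = 0.915) and 0.22 (SE 0.176, adjusted p = 0.82). Without the 24 h arrays they were -0.086 and -0.005. The slopes were 0.07 (SE 0.05) and 0.06 (SE 0.073).

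The genes of the p53 list were on average higher with T3 at 24 h as well, with a mean log2 signal of -0.25 untreated and 0.29 with T3, relative to each gene's mean over the arrays (14 of 17 genes kept). At 6, 16 and 48 h the list stood at -0.28 and -0.24, -0.04 and 0.01, and 0.31 and 0.19. The 24 h difference is set against the untreated array that stood apart in its markers, whose part in it was not tested. Sesn1, with 718.4 untreated and 295.7 with T3 at 24 h, and Trp53inp1, with 1305.5 and 1101.3, went the other way. None of the 14 genes passed for T3, and their median effect was 0.13 against 0.012 over all probe-sets. The largest effects were those of Gadd45a, a stress-induced inhibitor of growth, at 0.65 (SE 0.196, adjusted p = 0.815), and Bbc3, a pro-apoptotic factor, at 0.59 (SE 0.294, adjusted p = 0.815). Bbc3 read 124.3 untreated and 440.6 with T3 at 24 h, and 100.9 and 89.9 at 48 h. The steepest slopes belonged to Perp, at 0.70 (SE 0.177, adjusted p = 0.212), and Phlda3, at 0.59 (SE 0.117, adjusted p = 0.208). With the arrays as independent, 6 of the 14 rose (Ccng1, Gadd45a, Plk2, Phlda3, Perp and Btg2), beside 10.6% of all probe-sets, and 0 fell, beside 8.56%. With the random block none passed.

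Cdkn1b encodes p27, the inhibitor of granule precursors that leave the cycle, and its 2 probe-sets took different courses (r = -0.33 over the 8 arrays). Probe-set 1434045_at read 546.7 untreated and 420.4 with T3 after 6 h, 216.4 and 308.0 after 16 h, 286.1 and 329.8 after 24 h, and 152.2 and 205.1 after 48 h. It was lower with T3 at 6 h and higher at the 3 later times (effect 0.19, SE 0.161, adjusted p = 0.822). Probe-set 1419497_at read 54.6 and 51.8, 133.6 and 133.1, 243.2 and 475.8, and 105.8 and 170.6. Its arrays were alike at 6 and 16 h and higher with T3 at 24 and 48 h, by 1.956-fold and 1.612-fold (effect 0.39, SE 0.198, adjusted p = 0.815). On leaving out 24 h the effect was 0.203.

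Over the hours the 2 probe-sets of Cdkn1b had slopes of opposite sign. For 1434045_at the slope was -0.45 (SE 0.119, adjusted p = 0.214), which passed with the arrays as independent (adjusted p = 0.0222) and not with the random block (adjusted p = 0.108). For 1419497_at it was 0.57 (SE 0.314, adjusted p = 0.371) and rested on the low signals at 6 h, without which it was -0.138. Within an array, 1419497_at divided by 1434045_at was 0.10 untreated and 0.123 with T3 after 6 h, 0.617 and 0.432 after 16 h, 0.85 and 1.443 after 24 h, and 0.695 and 0.832 after 48 h. These quotients were lowest at 6 h whatever the treatment. What distinguishes the 2 probe-sets was not tested.

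Cdkn1c encodes p57, the Cip/Kip inhibitor known for an imprinted locus. Its probe-set 1417649_at read 98.5 untreated and 121.0 with T3 after 6 h, 835.4 and 539.8 after 16 h, 629.2 and 408.1 after 24 h, and 1133.3 and 804.9 after 48 h. With T3 it was higher at 6 h (fold 1.228) and lower at 16, 24 and 48 h (folds 0.646, 0.649 and 0.71). The effect over the 4 pairs was -0.36 (SE 0.167, adjusted p = 0.815), and on leaving out 6 h it was -0.583 (adjusted p = 0.909).

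The slope of Cdkn1c was 1.01 (SE 0.214), the steepest of the 21, with an adjusted p of 0.208 on the 4 means, 0.0136 with the arrays as independent and 0.0474 with the random block. It rested largely on the low signals at 6 h, without which it was 0.385. The list of vascular and meningeal markers, led by its collagen genes, was also low at 6 h and high at 48 h. Its mean log2 signal, relative to each gene's mean over the arrays, was -1.34 untreated and -1.80 with T3 at 6 h. It was 0.51 and 0.27 at 16 h and 1.07 and 1.14 at 48 h. At 24 h it was -0.16 untreated and 0.31 with T3, where Cdkn1c was the lower with T3. Choroid plexus markers were also low at 6 h (-1.14 untreated and -0.73 with T3) and higher at 48 h (0.44 and 0.75). At 24 h they were low (-0.81 and -0.32). The part of the cells of either list in the Cdkn1c signal was not tested.

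Cdkn2c encodes p18, an INK4 inhibitor of CDK4 and CDK6. Its probe-set 1416868_at read 189.3 untreated and 213.2 with T3 after 6 h, 114.8 and 142.4 after 16 h, 147.0 and 116.2 after 24 h, and 123.6 and 146.2 after 48 h. It was higher with T3 at 6, 16 and 48 h and lower at 24 h (effect 0.10, SE 0.145, adjusted p = 0.894). The slope was -0.20 (SE 0.121, adjusted p = 0.403), and 0.045 without the 6 h arrays.

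**Figure D4:**
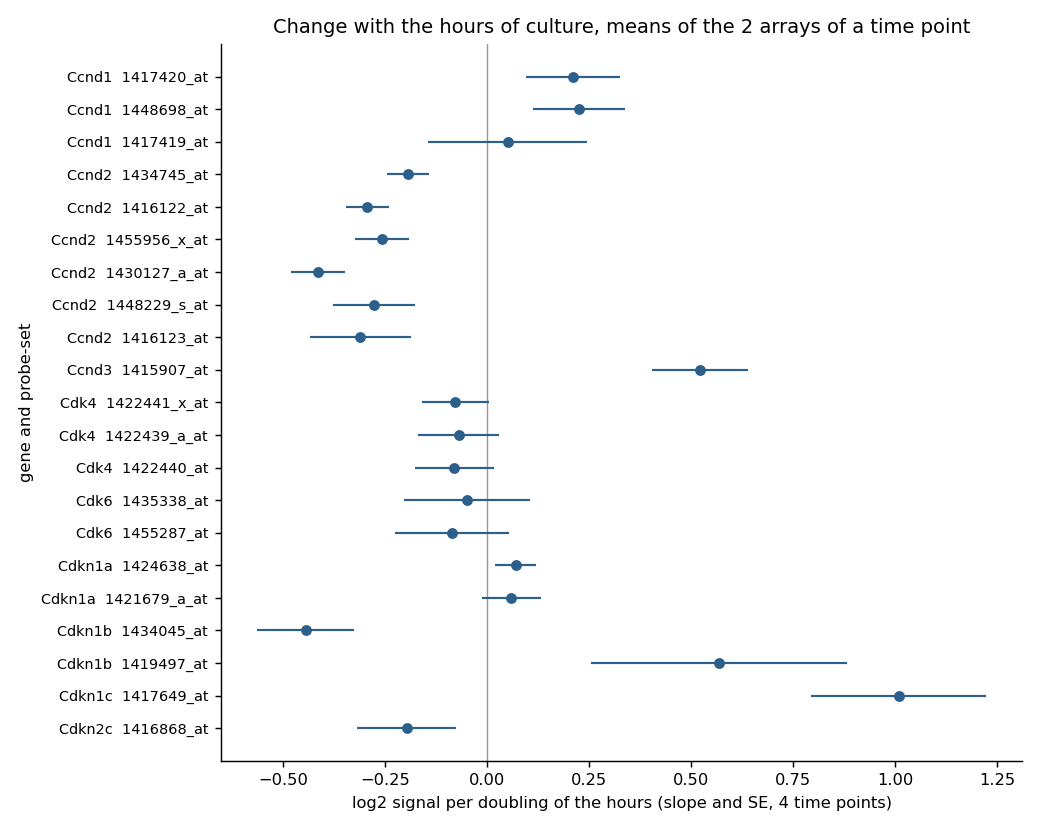
Slope of log2 signal per doubling of the hours (horizontal axis, point and SE from 4 time points) for the 21 kept probe-sets (vertical axis). The 6 Ccnd2 probe-sets lie at -0.41 to -0.20, Ccnd3 at 0.52 and Cdkn1c at 1.01, and the probe-sets of Cdkn1b lie on opposite sides of 0.

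Taken over the hours, 13 of the 21 probe-sets had a slope below 0 and 8 above, with a median of -0.08 beside -0.033 over all probe-sets. On the 4 means none passed. Without the 24 h arrays 5 passed, where 10.7% of all probe-sets did. They were Ccnd3 and Cdkn1c, which rose (5.46% of all), and Ccnd2 1416122_at, Ccnd2 1430127_a_at and Cdkn1b 1434045_at, which fell (5.21% of all). With the arrays as independent 8 passed, against 19.2% of all, and with the random block 4, against 2.18% of all. Ccnd3, Cdkn1c, Ccnd2 1416122_at and Ccnd2 1430127_a_at passed in each of these 3 fits but not on the 4 means. Dropping the 6, 16 or 48 h arrays instead left 0. Several of the probe-sets that passed read the same gene, Ccnd2, so the counts are not counts of separate genes. By the brightest probe-set of each of the 9 genes, 2 rose and 2 fell with the arrays as independent. With the random block 2 of the 9 rose and 0 fell. The study does not say whether the time points came from separate batches of cells. If they did, the hours and the batch cannot be told apart.

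The other genes of the pathway were taken as lists, each gene by its brightest kept probe-set, and none of their genes passed for T3 or for the hours on the 4 means. The T3 medians are to be read beside 0.012 and the slope medians beside -0.033 over all probe-sets.

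Among the later cyclins and kinases of S phase entry (8 of 8 genes kept) the median T3 effect was -0.03 and the median slope 0.10. Ccne1, cyclin E1, had the largest T3 effect at -0.46 (SE 0.144, adjusted p = 0.815) and was lower with T3 at all 4 time points, with 114.5 untreated and 73.2 with T3 at 6 h and 195.8 and 189.6 at 48 h. Cdk7, of the CDK-activating kinase, followed at 0.25 (SE 0.126, adjusted p = 0.815). The steepest slopes were those of Ccna2, cyclin A2, at -0.51 (SE 0.216, adjusted p = 0.292) and Ccne1 at 0.37 (SE 0.105, adjusted p = 0.22). With the arrays as independent 1 of the 8, Ccne1, rose, a share close to the 10.6% of all probe-sets.

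Of the pocket proteins and E2F factors 11 of 13 genes were kept, with a median T3 effect of -0.15 and a median slope of -0.31. E2f5 had an effect of -0.73 (SE 0.233, adjusted p = 0.815) and read 438.8 untreated and 152.6 with T3 at 16 h but 152.9 and 142.6 at 48 h. E2f8, a repressor that E2F itself induces, had an effect of -0.50 (SE 0.264, adjusted p = 0.815) and a slope of -0.82 (SE 0.253, adjusted p = 0.228). Tfdp2, an E2F partner, had a slope of -0.49 (SE 0.117, adjusted p = 0.208). With the arrays as independent 3 of the 11 fell (Rb1, E2f8 and Tfdp2), beside 8.56% of all probe-sets, and none rose, beside 10.6%.

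The other CDK inhibitors (3 of 4 kept) had a median T3 effect of 0.16 and a median slope of -0.01. Cdkn2b, the INK4 inhibitor p15, had an effect of 0.33 (SE 0.242, adjusted p = 0.818) and a slope of 0.70 (SE 0.161, adjusted p = 0.208), whereas Cdkn2d, p19, had 0.16 (SE 0.139, adjusted p = 0.822) and -0.45 (SE 0.172, adjusted p = 0.26). With the arrays as independent Cdkn2b rose (adjusted p = 0.0191; 10.6% of all probe-sets rose) and Cdkn2d fell (adjusted p = 0.045; 8.56% of all fell).

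The genes for degradation of D cyclins and p27 (7 of 7 kept) had medians of 0.0 and -0.12, and none passed in any of these fits. Fbxo31, an F-box protein for cyclin D1, had a T3 effect of 0.31 (SE 0.156, adjusted p = 0.815), and Skp2, the F-box protein for p27, one of -0.27 (SE 0.214, adjusted p = 0.82). Skp2 read 269.7 untreated and 123.6 with T3 at 24 h and differed little at the other times, as with 108.2 and 101.8 at 48 h. The steepest slopes were those of Skp2 at -0.20 (SE 0.164) and Gsk3b, whose kinase marks cyclin D1 for export and decay, at -0.18 (SE 0.124).

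Of the regulators above the D cyclins in granule precursors (hedgehog pathway genes with Mycn, Myc and Atoh1), 6 of 7 were kept, with medians of -0.13 and -0.36. Atoh1, the transcription factor that keeps granule precursors in cycle, had an effect of -0.85 (SE 0.48, adjusted p = 0.815) that was largest at 24 h, where it read 270.1 untreated and 32.8 with T3, against 27.6 and 26.9 at 48 h. Mycn, which carries the hedgehog signal to the D cyclins, had an effect of -0.23 (SE 0.276, adjusted p = 0.864). The slopes were -1.03 (SE 0.132, adjusted p = 0.208) for Mycn and -0.96 (SE 0.184, adjusted p = 0.208) for Atoh1. Mycn read 676.0 untreated and 606.2 with T3 at 6 h and 57.3 and 81.5 at 48 h. With the arrays as independent 4 of the 6 fell (Mycn, Gli2, Ptch1 and Atoh1), beside 8.56% of all probe-sets, and Smo rose, beside 10.6%. With the random block none passed.

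For each of the 9 genes, the 3 genes with the most similar course over the 8 arrays were sought among 10194 by Pearson correlation of log2 signals. Ccnd2 (1434745_at) was followed by Traf6 (r = 0.975), Cct6a (0.968) and Cntrl (0.968), Ccnd3 by Rnf181 (0.998), S1pr2 (0.994) and Stat3 (0.99), and Ccnd1 by Jam2 (0.984), Ifngr2 (0.973) and Mpzl1 (0.973). Cdk4 was followed by Cnot9 (0.99), Tcf3 (0.963) and Map2k6 (0.96), and Cdk6 by Rap1a (0.965), Tmem263 (0.962) and Ppp1r2 (0.953). Among the inhibitors, Cdkn1a was followed by Atf6 (0.957), Scyl3 (0.939) and Slc20a1 (0.93), Cdkn1b (1434045_at) by Rbm18 (0.993), Socs7 (0.985) and Magef1 (0.981), Cdkn1c by Slc41a3 (0.993), C77080 (0.989) and Apeh (0.987), and Cdkn2c by Brf2 (0.983), Sft2d3 (0.982) and Tubg1 (0.975). These values are descriptions over 8 arrays, and the arrays of a time point share their cells. Each is also among the highest of 10194. Some of the named genes had signals around the filter's 31.0, such as Cntrl (22.9 to 47.2), Slc41a3 (19.7 to 50.3) and Sft2d3 (25.5 to 45.5). Others, such as Cct6a (2121.6 to 2738.6), were bright.

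Between the members themselves, by the brightest probe-sets, Ccnd3 and Cdkn1c correlated at 0.92 and Ccnd3 and Cdkn1b at -0.93 over the 8 arrays.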

How the data were processed

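RNA (1 µg per culture) was amplified and hybridized by the authors to whole-genome Affymetrix mouse arrays, 1 per condition. The authors' deposited table holds 1 linear intensity per probe-set and array, made with GCOS and MAS5 per the submitters' processing notes and scaled to a mean of 100 that leaves out 2% of the probe-sets at either end (array medians 14.8 to 17.7). Scanner files, detection calls and MAS5 comparison p-values were not used here. Columns of values left unused: 0. The 45101 probe-sets included 64 controls, which were dropped. The platform annotation gives 34945 of the remaining 45037 a single symbol, 932 several and 9160 none.

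After raising signals under 1 to 1, log2 was taken. Probe-sets were kept when their mean log2 signal reached the 60th percentile (4.95, a signal of 31.0). Fits used R 4.3.3 and limma 3.58.1 with a variance trend and Benjamini-Hochberg adjustment over 18015 probe-sets at a threshold of 0.05; tables, promoter searches and plots used Python 3.11.15, pandas 2.3.3, numpy 2.4.6 and matplotlib 3.10.9. T3 effects had the time point as a block (4 pairs, from the methods' statement that each pair shares a cell batch). Deviations from the treatment mean correlated within pairs at 0.905, 0.713, 0.52 and 0.878 for 6, 16, 24 and 48 h. Hours were fitted as log2 on the 4 means of the pairs, and as alternatives on 8 independent arrays with treatment as a covariate or with a random block for the time point (correlation 0.569). Changing T3 effects were fitted on the 4 paired differences. Single time points were compared at 2-fold with no test. Fits were tested on simulated data.

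The members and gene lists were chosen with earlier results of these data known. All probe-sets of the 9 genes are named. From each pathway list every gene that passed, also in the fits over the hours with independent arrays, is named, and, since none passed in the fits on pairs, those with the 2 largest T3 effects and the 2 steepest slopes, and for each member the 3 genes of most similar course. Alternatives were quantile normalization, median centring, adding 32, no filter, a stricter filter (the 75th percentile), no variance trend, no block, hours untransformed, untreated arrays alone, 1.6-fold, the mean of a gene's probe-sets and dropping each time point in turn. The number of arrays limits the precision.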

Additional observations from a re-analysis of the deposited data

Results flagged for a closer look

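In the 4 paired differences of each of the 21 probe-sets, the highest or lowest value was compared with the others by its gap over the whole range (Dixon's test at 95%; chance flags about 1 in 20). For Cdkn1c 1417649_at the 6 h difference in log2 signal, T3 minus untreated, was 0.297 and the differences at 16, 24 and 48 h were -0.630, -0.625 and -0.494. For Ccnd2 1455956_x_at the 6 h difference was 0.104, and those at 16, 24 and 48 h were -0.309, -0.283 and -0.321. Both were higher with T3 at 6 h alone. The T3 effect as a function of the hours did not pass for either (limma adjusted p = 1).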

How the results depend on the processing

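No alternative called a T3 effect or a T3 effect changing with the hours for any of the 21 probe-sets, with the no replicate block fit giving 0 as well (76 of all probe-sets at an unadjusted p below 0.05, against 985 with the block). Over the hours 0 probe-sets passed on the 4 means, 8 with the arrays as independent, 4 with the random block, and 0 to 5 on leaving out each time point (5 without 24 h). Beyond 2-fold, the count went from 0 to 2 at 6 h and to 1 at 48 h without the filter, and at 1.6-fold it was 2 at 6 h, 6 at 24 h and 1 at 48 h. At 24 h and 2-fold it was 1, with 2 after quantile normalization and 0 with 32 added. Shares of all probe-sets were counted only at 2-fold in the main setting, so the other counts cannot be read against a background.

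Of the alternative T3 effects 228 kept their direction and 9 did not. Ccnd3 was at -0.053 with median centring and at -0.014 to 0.048 on leaving out a time point. Leaving out a time point gave -0.193 to 0.061 for Cdk4 1422439_a_at, -0.285 to 0.086 for 1422440_at, -0.227 to 0.0 for 1422441_x_at, -0.005 to 0.372 for Cdkn1a 1421679_a_at and -0.086 to 0.194 for 1424638_at. The mean of the Ccnd2 probe-sets was 0.088. Of the alternative slopes 266 kept their direction and side of the threshold, 17 kept their direction and now passed, and 11 changed direction. Leaving out a time point gave -0.265 to 0.259 for Ccnd1 1417419_at, -0.091 to 0.065, -0.162 to 0.12 and -0.103 to 0.043 for Cdk4 1422439_a_at, 1422440_at and 1422441_x_at, -0.288 to 0.123 and -0.315 to 0.137 for Cdk6 1435338_at and 1455287_at, -0.138 to 1.264 for Cdkn1b 1419497_at and -0.338 to 0.045 for Cdkn2c. Cdk4 1422440_at was at 0.005 in untreated arrays alone and Cdk6 1435338_at at 0.001 per hour. The cause was not tested. With 4 pairs, an effect within about its own SE has no settled direction, and one beyond it can be unsettled too. The slope of Cdkn1b 1419497_at (0.57, SE 0.314) was among those that changed direction.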
